A study of Mus musculus with 2 samples.

Results

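The epithelial sodium channel and the aldosterone pathway that controls it were examined in mouse colon through 7 genes: the channel subunit genes Scnn1a, Scnn1b and Scnn1g, the mineralocorticoid receptor gene Nr3c2, the steroid dehydrogenase gene Hsd11b2, the kinase gene Sgk1 and the ubiquitin ligase gene Nedd4l. The genes were taken by symbol from a table of 27874 gene symbols, all 7 were found, and the transcript rows of each symbol were summed. RNA came from tissue labelled colon lamina propria of C57BL/6J mice in a Control group and a K14/hyal1 group, with 1 library in each. The labels give Control and K14/hyal1 as the genotype or variation. The name K14/hyal1 joins the keratin 14 gene, whose promoter is active in the basal layer of skin and other squamous epithelia, and Hyal1, which encodes an enzyme that cleaves hyaluronan; the sources used here give neither the number of animals behind each library nor their age nor the time of day of collection. With 1 library per group there is no replicate check, so each difference below is between 2 libraries and carries no test. Levels are in CPM, reads scaled so that a whole library has 1000000, and each range in brackets is an exact 95% interval that covers counting error alone.

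In the distal colon, sodium is taken up from the gut lumen through a channel in the apical membrane of surface epithelial cells, built from an alpha, a beta and a gamma subunit. Aldosterone binds the mineralocorticoid receptor, which raises transcription of channel subunits and of SGK1; SGK1 phosphorylates NEDD4-2, the Nedd4l product, which otherwise ubiquitinates the channel and removes it from the membrane. HSD11B2 inactivates glucocorticoids in the same cells, so that the receptor, which binds both kinds of steroid, can respond to aldosterone. Much of what is known of this chain comes from the kidney collecting duct, where the same genes act.

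Each of the 7 genes had a lower level in K14/hyal1 than in Control as the table is scaled, though Scnn1b and Nr3c2 were on the other side of 0 relative to surface colonocyte markers, and the extent differed among the genes. Scnn1g, Scnn1a and Sgk1 were at least 2-fold lower on the log2(CPM + 1) scale, whereas Nedd4l, Hsd11b2, Nr3c2 and Scnn1b were lower by less than 2-fold. Of the 13563 genes with a mean of at least 2.31 CPM, 1.54% were at least 2-fold lower and 3.75% at least 2-fold higher in K14/hyal1, and their median log2 ratio was 0.21. All 7 members passed that filter, 3 of them were at least 2-fold lower and 0 higher, and their median log2 ratio was -0.61. The members were chosen with earlier results of these data known, so these counts are a description.

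**Figure D1:**
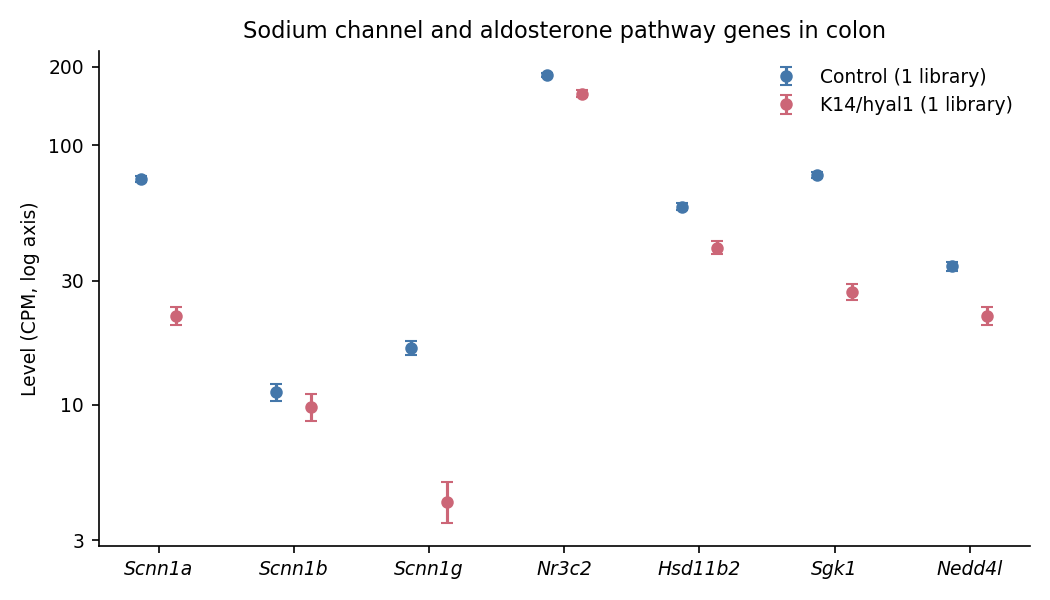
Level of each gene in CPM on a log axis, in the Control library (blue) and the K14/hyal1 library (red), with exact 95% Poisson intervals for counting error. The intervals of the libraries are apart for every gene but Scnn1b, and the gaps are widest for Scnn1g (16.5 and 4.20 CPM), Scnn1a (74.0 and 21.9 CPM) and Sgk1 (76.6 and 27.1 CPM).

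Scnn1a encodes the alpha subunit, without which the channel carries little current. Its gene lies on chromosome 6 at 125320659-125344943 on the plus strand (mm10). It was at 74.0 CPM in Control (71.9 to 76.2, 4523 estimated reads) against 21.9 in K14/hyal1 (20.3 to 23.7, 637 estimated reads), 3.37-fold lower (3.10 to 3.67). Its log2 ratio of -1.71 was at rank 52 from the lowest among the 13563 genes.

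Scnn1g, the gene of the gamma subunit, lies on chromosome 7 at 121734479-121768475 and had the lowest log2 ratio of the 7 genes, -1.75. It was at 16.5 CPM in Control (15.5 to 17.6, 1010 estimated reads) against 4.20 in K14/hyal1 (3.49 to 5.02, 122 estimated reads), 3.93-fold lower (3.26 to 4.78). The gene is a single row of the table, so no choice among transcripts enters this value.

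Scnn1b, the gene of the beta subunit, starts 96.6 kb beyond the end of Scnn1g on the same strand of chromosome 7, at 121865038-121918514, and showed another picture. It was at 11.1 CPM in Control (10.3 to 12.0, 681 estimated reads) against 9.75 in K14/hyal1 (8.65 to 11.0, 283 estimated reads). The ratio of K14/hyal1 to Control was 0.875 (0.759 to 1.01), so the difference was within counting error as the table is scaled. The interval leaves out a difference of the size seen for the neighbouring gene. The median log2 ratio of all genes, 0.21, lay above the log2 interval of Scnn1b, -0.36 to 0.01. Both genes read in the same direction, and the 300 bases around each start site, 250 before and 50 after it (RefSeq, GRCm38.p6), are shown because the members of this neighbouring pair differ in their ratios.

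Scnn1g, chr7:121734229-121734528, plus strand: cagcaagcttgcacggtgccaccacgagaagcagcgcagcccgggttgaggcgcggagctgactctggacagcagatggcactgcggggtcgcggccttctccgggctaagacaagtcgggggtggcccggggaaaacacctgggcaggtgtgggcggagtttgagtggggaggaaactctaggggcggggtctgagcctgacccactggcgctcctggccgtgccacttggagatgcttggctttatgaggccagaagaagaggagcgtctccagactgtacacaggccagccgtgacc
Scnn1b, chr7:121864788-121865087, plus strand: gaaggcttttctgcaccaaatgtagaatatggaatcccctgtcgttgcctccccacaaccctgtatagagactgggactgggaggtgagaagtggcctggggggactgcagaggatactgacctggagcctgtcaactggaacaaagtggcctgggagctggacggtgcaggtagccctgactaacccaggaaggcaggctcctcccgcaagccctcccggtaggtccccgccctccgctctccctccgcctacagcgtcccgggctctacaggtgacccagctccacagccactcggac

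Neither window holds the palindrome bound by the mineralocorticoid and glucocorticoid receptors (the arm AGAACA, any 3 bases, then the arm TGTTCT), a single arm AGAACA, or the clock E-box CACGTG on either strand, and no letter is therefore in capitals. Windows with the single arm were 19.0% and windows with the E-box 7.15% of the 32851 promoter windows in the RefSeq table. The windows had 64.7% (Scnn1g) and 61.7% (Scnn1b) G and C, against a median of 52.7% over all windows. No match in these windows says only that the letters are not there.

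Levels of the subunits can be set against each other only per length. Per kilobase of the longest annotated transcript (GENCODE M21), Scnn1a was at 21.2 CPM, Scnn1g at 5.53 CPM and Scnn1b at 4.30 CPM in Control. In K14/hyal1 the order of the lower subunits was the other way round by this length, with Scnn1a at 6.27, Scnn1b at 3.76 and Scnn1g at 1.41 CPM per kilobase. The order in Control rests on the length chosen. The longest Scnn1b transcript has 2591 bases and the median of its coding transcripts is 1457.5, while Scnn1g has 1 transcript of 2991 bases. Which transcripts were expressed is not known, and the same limit holds for every per-length ratio of different genes given here. The per-length level of Scnn1a was thus 4.92 times that of Scnn1b in Control and 1.67 times in K14/hyal1. For Scnn1g over Scnn1b the per-length ratio was 1.28 in Control and 0.373 in K14/hyal1. The ratio of Scnn1a to Scnn1g was much closer in the 2 libraries, 3.83 and 4.46. The beta subunit transcript made up 13.9% of the summed per-length level of the subunits in Control and 32.9% in K14/hyal1, while the sum itself was 31.0 and 11.4 CPM per kilobase.

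**Figure D2:**
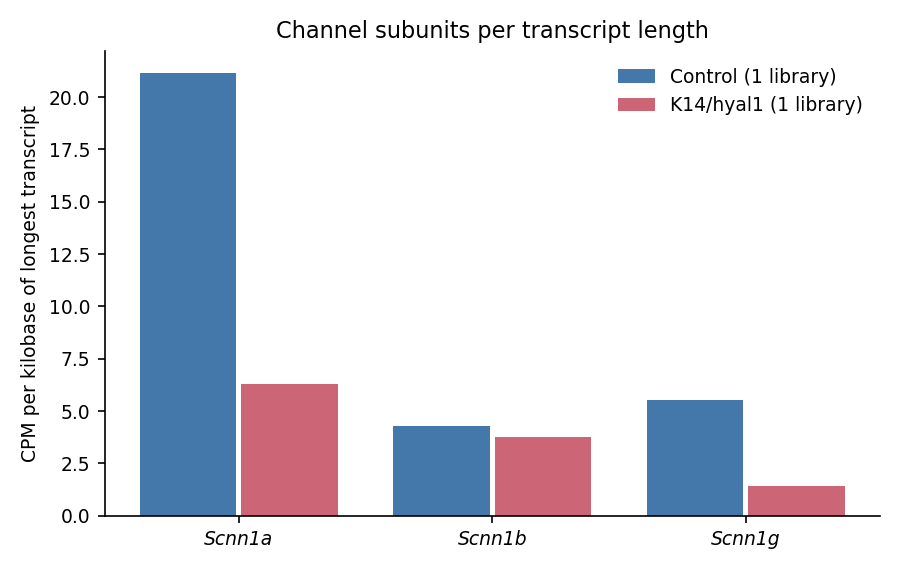
CPM per kilobase of the longest annotated transcript for the 3 channel subunit genes in the Control library (blue bars) and the K14/hyal1 library (red bars), without error bars. Scnn1a is the tallest bar in each library, and Scnn1b, at 4.30 and 3.76, is the lowest subunit in Control and the middle one in K14/hyal1. The order of Scnn1b and Scnn1g in Control depends on the transcript length used.

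Nr3c2, the gene of the mineralocorticoid receptor, lies on chromosome 8 at 76899442-77245012 and had the highest CPM of the 7 genes in both libraries. It was at 186 CPM in Control (182 to 189) against 158 in K14/hyal1 (153 to 163), a ratio of 0.851 (0.822 to 0.880). The glucocorticoid receptor gene Nr3c1, named here after its values were seen, was at 68.4 CPM in Control against 98.2 in K14/hyal1, a ratio of 1.44 (1.37 to 1.51). The per-length ratio of Nr3c2 to Nr3c1 was 2.95 in Control and 1.75 in K14/hyal1.

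Hsd11b2, the gene of the glucocorticoid-inactivating dehydrogenase, lies on chromosome 8 at 105518755-105523988 and is a single row of the table. It was at 57.9 CPM in Control (56.0 to 59.9) against 40.2 in K14/hyal1 (37.9 to 42.6), 1.44-fold lower (1.35 to 1.54). Per length it stood at 1.003 times the level of Nr3c2 in Control and 0.818 times in K14/hyal1. Hsd11b1, whose product mainly works in the reverse direction and regenerates glucocorticoid, was below the filter, at 0.908 and 2.03 CPM.

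Sgk1 encodes a kinase whose transcript is quickly induced by corticosteroids and by other stimuli, among them changes in cell volume. The gene lies on chromosome 10 at 21882184-21999903. It was at 76.6 CPM in Control (74.4 to 78.8, 4678 estimated reads) against 27.1 in K14/hyal1 (25.3 to 29.1, 787 estimated reads), 2.82-fold lower (2.62 to 3.05), and its log2 ratio of -1.46 was at rank 83 from the lowest. Of the related kinases, Sgk2 was at 14.9 and 8.03 CPM, with a log2 ratio of -0.82, and Sgk3 at 3.50 and 4.72 CPM, with a log2 ratio of 0.35. These related genes were picked out after their values were seen.

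The RefSeq table gives Sgk1 6 promoter windows, and a pair of them is shown because Sgk1 is the member of this set best known as a direct steroid target. The first holds the full receptor palindrome, and the second, rich in G and C, is the window furthest downstream. Capitals mark the palindrome, single arms AGAACA on either strand and the E-box CACGTG.

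Sgk1, chr10:21993640-21993939, plus strand: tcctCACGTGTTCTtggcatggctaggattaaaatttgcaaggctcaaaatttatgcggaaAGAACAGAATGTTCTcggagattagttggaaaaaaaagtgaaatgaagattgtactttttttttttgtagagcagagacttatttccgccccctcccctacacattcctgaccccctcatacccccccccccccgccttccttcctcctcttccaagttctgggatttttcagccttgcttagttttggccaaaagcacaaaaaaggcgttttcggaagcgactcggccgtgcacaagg
Sgk1, chr10:21994416-21994715, plus strand: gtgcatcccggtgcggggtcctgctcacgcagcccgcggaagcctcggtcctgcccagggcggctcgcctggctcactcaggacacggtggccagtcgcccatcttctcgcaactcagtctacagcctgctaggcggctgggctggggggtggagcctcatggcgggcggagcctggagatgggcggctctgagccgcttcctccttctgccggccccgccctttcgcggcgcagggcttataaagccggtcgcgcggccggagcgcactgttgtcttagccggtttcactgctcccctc

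The palindrome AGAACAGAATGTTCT is at chr10:21993701-21993715, its first base 189 bases before the start site of that window. Only 3 of the 32851 windows, or 0.00913%, hold this full sequence on either strand; the others belong to Acnat2 and Gm35041. An E-box lies near the 5′ end of the same window and overlaps a single arm there. A single arm was found in 3 of the 6 Sgk1 windows, this one included, and in none of the windows read for Scnn1b, Scnn1g and Nr3c2. A match is a description of the letters, not evidence of binding in these libraries.

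Nedd4l encodes NEDD4-2, the ligase that removes the channel from the membrane. It was at 34.0 CPM in Control (32.6 to 35.5, 2080 estimated reads) against 21.98 in K14/hyal1 (20.3 to 23.8, 638 estimated reads), 1.55-fold lower (1.42 to 1.69). The per-length ratio of Sgk1 to Nedd4l was 5.66 in Control and 3.10 in K14/hyal1.

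The transcript rows that reached 1 CPM in a library were all lower in K14/hyal1 for Sgk1 and Scnn1a, though by unequal extents. For Nedd4l, Nr3c2 and Scnn1b they were mixed, some lower and others level or higher. The table does not name the transcripts, and the sources used here do not say how reads shared by transcripts were divided. Of the 9 Sgk1 rows, 7 reached 1 CPM in a library, and all 7 were lower in K14/hyal1, with the 2 most abundant at 41.0 and 17.0 CPM and at 23.6 and 6.53 CPM (Control and K14/hyal1). Of the 5 Scnn1a rows, 1 carried 91.1% of the level in Control and 93.5% in K14/hyal1, and it was 3.29-fold lower. The second Scnn1a row above 1 CPM was at 5.52 CPM in Control against 0.840 in K14/hyal1, 6.57-fold lower.

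For Nedd4l, a row at 14.87 CPM in Control against 14.95 in K14/hyal1 was level, and the other row was at 19.2 CPM in Control against 7.03 in K14/hyal1, 2.73-fold lower. The whole difference of Nedd4l thus sat in 1 of its 2 rows. For Nr3c2 the most abundant row was at 104 CPM in Control against 106 in K14/hyal1, and the rest of the gene carried the difference, above all a row at 31.9 CPM in Control against 12.9 in K14/hyal1. Scnn1b had a row at 3.71 and 4.41 CPM and a row at 7.44 and 5.35 CPM, in the order Control and K14/hyal1. Counting intervals are not given for rows, since reads assigned to single transcripts are estimates.

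**Figure D3:**
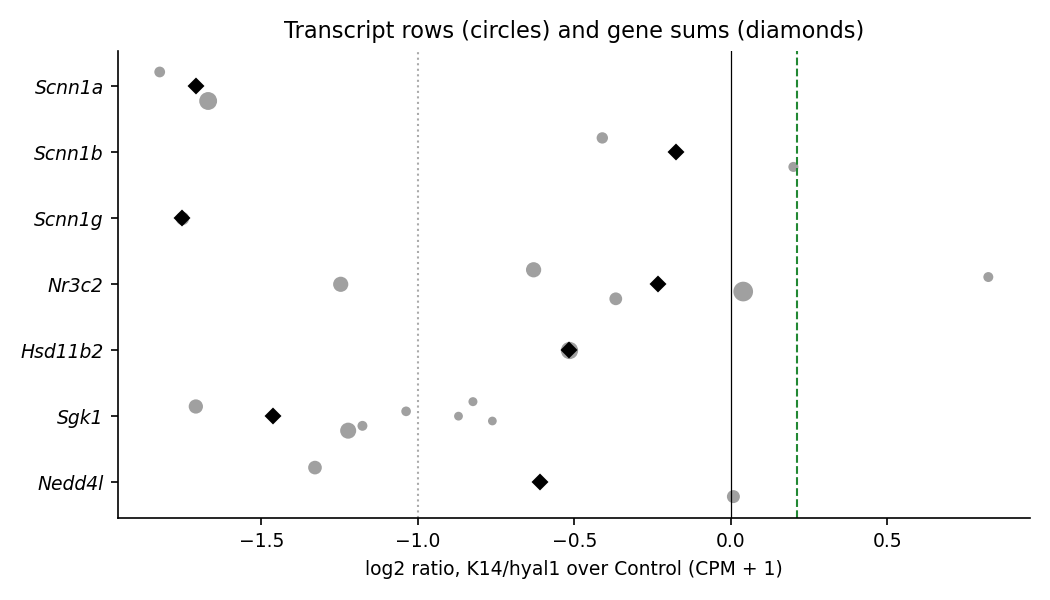
log2 ratio of K14/hyal1 over Control (CPM + 1) for each transcript row that reached 1 CPM in a library (grey circles, area growing with the Control level) and for the gene sums (black diamonds), with lines at 0 (solid), at 2-fold lower (dotted) and at the median of all genes, 0.21 (green, dashed). All Sgk1 and Scnn1a circles lie left of 0, and Nedd4l has 1 circle at 0.01 and 1 at -1.33.

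Other genes of the pathway were described through 7 lists of 69 genes in all, each gene counted once and the 7 members left out. Of these, 61 passed the filter, 6 were at least 2-fold lower and 1 was at least 2-fold higher. Their median log2 ratio was 0.14, against 0.21 over all genes. Across the 13563 filtered genes the 2-fold limit picked out 1.54% as lower and 3.75% as higher in K14/hyal1. These shares are the background for each list count below, and differences of the lists from them were not tested.

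Proteases that cleave the alpha and gamma subunits and so open the channel, with their inhibitors, had a median near level but lay on both sides of 0. All 7 passed the filter, 0 were 2-fold different, 5 had a log2 ratio below 0, and the median log2 ratio was -0.12. Prss8, which encodes the channel-activating protease prostasin, was the highest, at 12.5 CPM in Control against 16.3 in K14/hyal1. St14, which encodes matriptase, a membrane protease that acts in a cascade with prostasin, was the lowest. It was at 91.3 CPM in Control and 49.1 in K14/hyal1, 1.86-fold lower (1.75 to 1.97).

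Among 18 kinases, ubiquitin enzymes and adaptors around SGK1 and NEDD4-2, 2 were at least 2-fold lower and 0 higher, with a median log2 ratio of 0.15. Usp2, which encodes a deubiquitinase with a short form that stabilises the channel, was at 20.9 CPM in Control against 4.12 in K14/hyal1, 5.08-fold lower (4.21 to 6.18). Wnk4, a kinase that regulates sodium and potassium transport in the kidney, was at 11.1 and 4.54 CPM, 2.44-fold lower (2.02 to 2.96). Ndfip1, an adaptor of NEDD4 ligases, was the highest, at 4.19 and 6.51 CPM.

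The sodium pump drives sodium out of the cell on the basolateral side. Of 9 pump subunit and FXYD regulator genes, 7 passed the filter, 0 were 2-fold different, and the median log2 ratio was 0.38. The beta subunit gene Atp1b1 was the lowest, at 549 CPM in Control against 277 in K14/hyal1, 1.98-fold lower (1.94 to 2.03), with a log2 ratio of -0.985, just inside the 2-fold limit. Atp1b3, another beta subunit gene, was the highest, at 15.02 and 26.98 CPM.

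Genes known to be induced by corticosteroids split. Of 12 genes, 3 were at least 2-fold lower and 0 higher, with a median log2 ratio of -0.41. Per1, a clock repressor that is also induced by aldosterone and glucocorticoids, was at 39.2 CPM in Control against 6.06 in K14/hyal1, 6.46-fold lower (5.54 to 7.57). Zbtb16, a transcription factor gene strongly induced by glucocorticoids, was at 41.4 and 7.27 CPM, 5.70-fold lower (4.95 to 6.59), and Usp2, already given, is the third; Per1 and Usp2 are also under the control of the circadian clock. Dusp1, a phosphatase gene, was the highest, at 8.28 CPM in Control against 15.9 in K14/hyal1.

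The other members of that list lay between these extremes, and the following were picked out after their values were seen. The glucocorticoid-induced genes Tsc22d3 and Klf9 had ratios of K14/hyal1 to Control of 0.744 (0.686 to 0.807) and 0.755 (0.711 to 0.801). Atp12a, the colonic potassium pump that aldosterone induces, was at 252 CPM in Control against 176 in K14/hyal1, a ratio of 0.701 (0.679 to 0.723). Fxyd4, a regulator of the sodium pump that aldosterone raises in rat colon, went the other way. It was at 11.2 CPM in Control against 15.3 in K14/hyal1, a ratio of 1.37 (1.21 to 1.54). Ndrg2, Cnksr3 and Edn1 of the same list were higher in K14/hyal1 as well, with ratios of 1.41, 1.21 and 1.19.

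The glucocorticoid receptor, its chaperones and steroid conversion genes lay mostly above the median of all genes. Of 8 genes, 7 passed the filter, 1 was at least 2-fold higher and 0 lower, with a median log2 ratio of 0.51. Hsp90aa1, a chaperone that holds the unbound receptors, was at 23.1 CPM in Control against 49.6 in K14/hyal1, 2.15-fold higher (1.99 to 2.31). Fkbp5, a cochaperone that is itself induced by glucocorticoids, was the lowest, at 36.7 and 20.9 CPM.

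Of the 8 renin-angiotensin-aldosterone genes, 5 were in the table and 3 passed the filter, with 0 at 2-fold. Agt, the angiotensinogen gene, was the highest at 5.09 CPM in Control against 8.79 in K14/hyal1, and the receptor gene Agtr1b was the lowest at 3.35 and 2.69 CPM.

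Of 12 genes for other sodium, chloride and potassium transport in the colon, 2 were at least 2-fold lower and 0 higher, with a median log2 ratio of -0.07. Slc9a3, the apical sodium-proton exchanger, was at 6.12 CPM in Control against 1.31 in K14/hyal1, 4.67-fold lower (3.34 to 6.71). Slc26a3, the chloride-bicarbonate exchanger that works beside it, was at 603 and 241 CPM, 2.51-fold lower (2.44 to 2.57). Cftr, the chloride channel of secreting cells, was the highest, at 33.4 and 58.3 CPM.

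**Figure D4:**
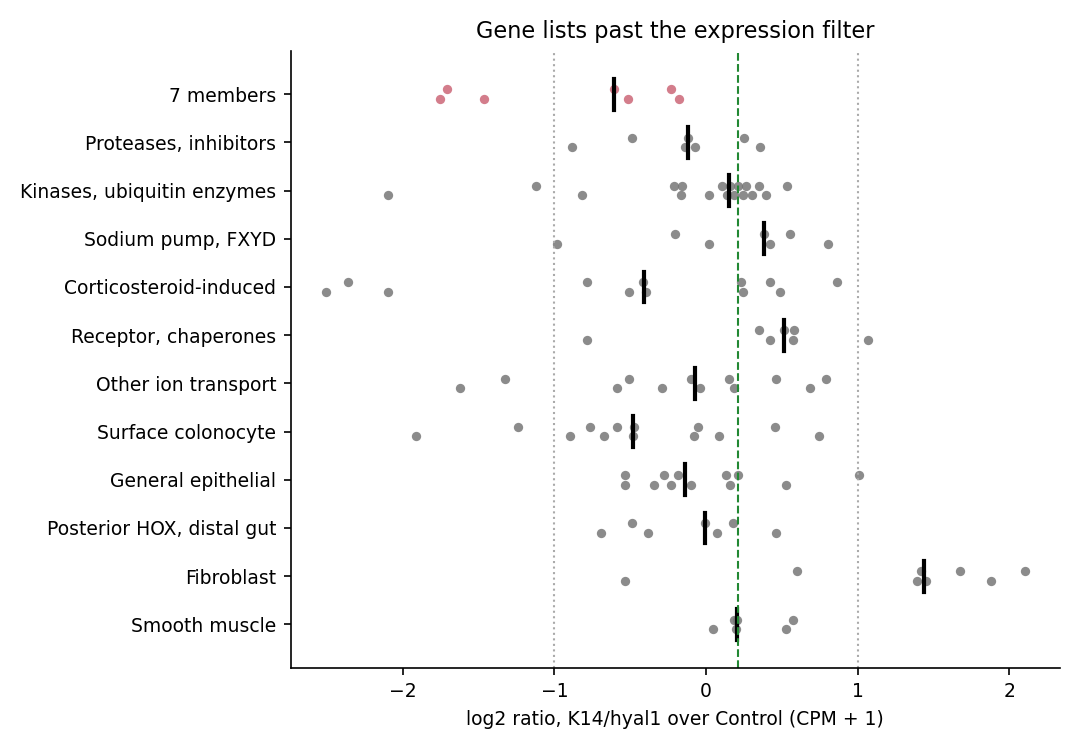
log2 ratio of K14/hyal1 over Control (CPM + 1) for each gene past the filter, by list, with the list median as a black bar, dotted lines at 2-fold and a dashed green line at the median of all genes, 0.21. As the table is scaled, the 7 members (red) all lie left of 0 (relative to the surface colonocyte list Scnn1b and Nr3c2 do not), the corticosteroid-induced list spans -2.51 to 0.86, and most fibroblast genes lie to the right.

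The labelled tissue is connective tissue, but epithelial transcripts were abundant in both libraries, and the channel is an epithelial product. In bulk RNA, fewer cells of a type and less RNA per cell cannot be told apart. The summed level of 12 general epithelial markers was 3205 CPM in Control against 3346 in K14/hyal1, with 1 marker at least 2-fold higher, 0 lower and a median log2 ratio of -0.14. Krt8 was the most abundant, at 952 and 1062 CPM, Ocln was the highest with a log2 ratio of 1.01, and Elf3 was the lowest with -0.54. Relative to that median, Scnn1a was lower by a log2 difference of -1.57, Scnn1g by -1.61 and Sgk1 by -1.32, whereas Scnn1b was at -0.03.

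Surface colonocyte markers, from the cells that carry the channel, were lower than epithelial markers in general. Of 16 markers, 13 passed the filter, 2 were at least 2-fold lower, 0 higher, and the median log2 ratio was -0.48. With no filter on low values the surface median was -0.28, and the general epithelial median stayed at -0.14. The summed level of the surface markers was 3883 CPM in Control against 3206 in K14/hyal1. Ceacam1 was the lowest, at 651 and 172 CPM, Lypd8 the most abundant, at 1247 and 1180 CPM, and Emp1 the highest, at 42.1 and 71.1 CPM. Relative to the surface median of -0.48, Scnn1a was at -1.23 and Scnn1g at -1.27, Sgk1 at -0.98, Nedd4l at -0.12 and Hsd11b2 at -0.03. Scnn1b and Nr3c2 were then on the other side, at 0.31 and 0.25. The part of the surface cells in the differences of Scnn1a, Scnn1g and Sgk1 was not tested.

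**Figure D5:**
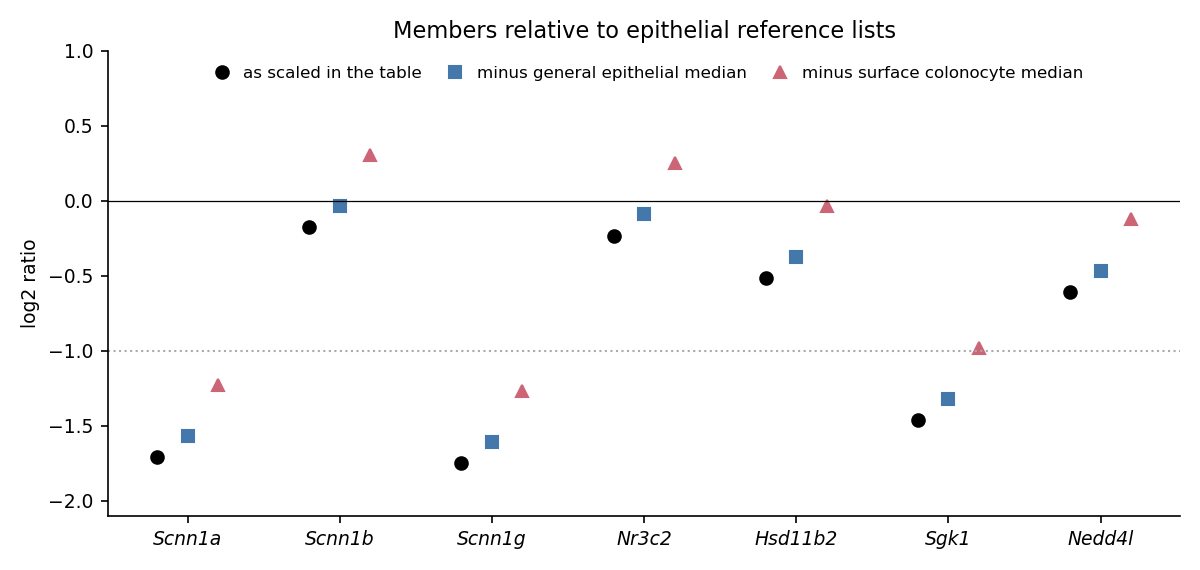
log2 ratio of K14/hyal1 over Control for the 7 genes as scaled in the table (black circles), minus the median of the general epithelial list (blue squares) and minus the median of the surface colonocyte list (red triangles), with a dotted line at 2-fold lower. Scnn1a and Scnn1g are below the dotted line in each of the 3, Sgk1 is at -0.98 in the last, and Scnn1b lies between -0.18 and 0.31.

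Position along the colon matters for this channel, which is most abundant distally. The 7 posterior HOX and distal gut genes had a median log2 ratio of -0.01, with 0 at 2-fold and summed levels of 395 CPM in Control against 410 in K14/hyal1. Hoxb13, the most abundant and the highest, was at 156 and 215 CPM. Of these genes, 4 had a log2 ratio below 0 and 6 lay below the median of all genes. Hoxd10 and Hoxd11, picked with their values known, were at -0.49 and -0.38. The list median was -0.16 with the filter at 4 times the minimum, and also with the least-squares mean values. Whether the libraries match in position along the colon was not tested. Goblet cell markers had a median of -0.09, with 1 of 7 at least 2-fold lower, Muc2 at 1019 and 433 CPM; Fcgbp was the most abundant at 2205 and 1604 CPM and Spink4 the highest at 36.6 and 52.5 CPM.

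Other sources of channel transcripts were checked through their markers. Sublingual-type gland genes had reads almost exclusively in Control: their summed level was 1479 and 0.172 CPM, all 6 past the filter were lower, Dcpp3 was the most abundant at 790 CPM and 0 reads, and Sbp, with the ratio closest to level, was at 8.55 CPM and 1 estimated read. Salivary ducts also express the channel, and of their 6 markers 4 were in the table. Klk1, which the colon also expresses, was at 167 CPM in Control against 196 in K14/hyal1, Egf at 3.33 and 2.33 CPM, and Ascl3 at 0.0982 and 0.103 CPM. The summed level of the duct markers, 171 CPM in Control against 200 in K14/hyal1, was mostly Klk1. Because the colon expresses Klk1, that sum cannot tell duct tissue from colon. The part of gland tissue in the Control levels of the channel genes was not tested.

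No squamous or kidney tubule marker passed the filter. The summed level of the squamous markers was 3.57 CPM in Control against 2.52 in K14/hyal1, led by Krt10, with Krt13 at 1 estimated read and 0 reads; that of the kidney markers was 0.544 and 0.802 CPM, led by Avpr2.

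Fibroblast and immune markers were mostly higher in K14/hyal1, where Scnn1a, Scnn1g and Sgk1 were lower. Of 8 fibroblast markers 6 were at least 2-fold higher in K14/hyal1, with a summed level of 385 and 947 CPM; Col3a1 was the most abundant at 158 and 425 CPM, Pi16 the highest in log2 ratio and Col1a1 the lowest. Of 8 immune markers, 6 passed the filter and 4 were at least 2-fold higher, with summed levels of 49.7 and 219 CPM, the most abundant being Lyz2 at 20.7 and 84.2 CPM; Jchain was the highest and Ptprc the lowest. Smooth muscle markers were level with other genes, with a median of 0.20 and 0 of 6 at 2-fold; Actg2 was the highest at 214 and 319 CPM, and Myh11 the most abundant and the lowest at 1286 and 1328 CPM. Transcripts encoded in mitochondria summed to 44208 CPM in Control against 27179 in K14/hyal1. The part of these shifts in the values of the 7 genes was not tested.

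The genes nearest to Scnn1a in mean level and log2 ratio over the 2 libraries, by Euclidean distance, were Brpf3 (69.7 and 23.4 CPM), Trp53inp2 (78.1 and 26.5 CPM) and Sgk1 itself, at distances of 0.182, 0.223 and 0.270 log2 units. With 2 libraries this likeness describes a pair of values only.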

How the data were processed

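RNA of 2 colon libraries, 1 per group, was extracted with a PureLink kit and made into libraries with a stranded mRNA kit, per the labels' protocols. Per the submitters' processing notes Partek and mm10 were used; neither aligner nor counting rule nor use of strand is stated in what was available. The deposited table has 72178 transcript rows and names no unit. The authors' values were taken to be CPM, since small values are multiples of 1 step, 0.0164 in Control and 0.0345 in K14/hyal1, after an offset of 0.0001 per row, which was taken off. The steps correspond to 61105110 and 29020309 reads, of which 25446242 and 13812945 are in the table, and 3 reads are worth 0.0491 and 0.103 CPM. Of gene values up to 300 reads, 81.6% and 82.9% lay within 0.1 of a whole number, so read numbers are estimates. The intervals rest on these estimated reads, and no count model was used to test differences.

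Rows were summed by symbol. The log2 ratio had a pseudocount of 1 CPM, so that differences of weakly expressed genes are understated; folds are plain ratios. Genes with a mean of at least 2.31 CPM, the median of the 27125 symbols above 0, passed the filter, and 2-fold on the log2 scale was the limit for a count. Poisson and Clopper-Pearson intervals cover counting error only, because 1 library per group gives no spread between libraries. Without molecular identifiers several reads can stem from 1 molecule, so the intervals can be too narrow even for counting error. The members and the 19 gene lists were chosen with earlier results of these data known. The named genes were, by rule, the members, in pathway lists every gene at 2-fold with the highest and the lowest, and in marker lists the highest, the lowest and the most abundant; others are marked as chosen later, and a gene chosen by this rule is not reported here. A deposited gene table of least-squares mean CPM served as an alternative, and a fold-change sheet and a skin sheet were not used. The headers of that gene table join each group to a second term, Control for both groups, which the headers do not explain. Coordinates and lengths are those of GENCODE M21 on mm10, and promoter windows, matched by symbol for Scnn1b, Scnn1g, Nr3c2 and Sgk1, those of RefSeq on GRCm38.p6. No entry was used for Scnn1a, Hsd11b2 and Nedd4l. Alternatives were other pseudocounts, filters, fold limits, scalings and row choices. The steps were tested on simulated data. Figures were drawn with matplotlib 3.10.9 and values computed with scipy 1.17.1, pandas 2.3.3 and numpy 2.4.6 under Python 3.11.15.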

Additional observations from a re-analysis of the deposited data

How the results depend on the processing

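No paired analysis was possible because each group has 1 library, and no library could be left out. Scnn1a, Scnn1g and Sgk1 stayed below 0 in the 10 settings of scale, pseudocount and source, the reported one included, with ranges of -1.93 to -1.24, -1.95 to -0.90 and -1.69 to -0.99. A pseudocount cannot change a sign, and the least-squares mean values are nearly the same as the summed ones. Those settings are therefore no check of the sign. The count of members at least 2-fold lower was 3 in the reported setting, 2 with a pseudocount of 10, at 3-fold or scaled to the surface colonocyte list, and 4 at 1.5-fold. The sign of the smaller differences was not fixed: scaled to the surface colonocyte list, Scnn1b was at 0.27 and Nr3c2 at 0.25, and with the most abundant row alone Nr3c2 was at 0.04 and Nedd4l at 0.01. Under median gene scaling and under TMM scaling, Scnn1b was at -0.39, against -0.18 as reported.

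Median gene scaling and TMM scaling lower the plain log2 ratio of each gene by 0.23, and that of weakly expressed genes by less once the pseudocount is added. The share of higher genes among those at 2-fold was 70.9% as deposited, 46.5% and 46.6% under these scalings, 53.7% without the 20 most abundant genes, and 84.1% and 96.9% after scaling to the general epithelial and the surface colonocyte list. Over all genes, 209 were lower and 509 higher as reported. The lower and higher counts were 76 and 126 with a pseudocount of 10, 663 and 2401 at 1.5-fold, 63 and 156 at 3-fold, 346 and 301 under median gene scaling, 346 and 302 under TMM scaling, and 88 and 2727 scaled to the surface colonocyte list. The higher count alone was 282 with the filter at 4 times the minimum and 821 scaled to the general epithelial list.

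Of the pathway genes outside the members, 6 were lower and 1 higher as reported. These counts were 11 and 6 at 1.5-fold and 10 and 0 under median gene and under TMM scaling. The higher count was 0 with a pseudocount of 10, at 3-fold and without the 20 most abundant genes, and 8 scaled to the surface colonocyte list. Members at least 2-fold below the surface colonocyte median numbered 2 as reported, 3 with a pseudocount of 0.1 and 0 with a pseudocount of 10. A higher pseudocount and a higher fold limit lower such counts by construction; the cause of the other shifts was not tested. Depth limits Scnn1g most, with 122 estimated reads in K14/hyal1.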
